A study of Mus musculus with 4 samples.

Results

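Kruppel-like factors are zinc finger transcription factors that bind GC-rich and CACCC-containing DNA through a shared C-terminal domain, and that activate or repress genes depending on their N-terminal parts and partners. In macrophages, Klf2 restrains inflammatory activation, Klf4 takes part in monocyte differentiation and alternative activation, and Klf6 promotes inflammatory gene expression. The present comparison asked whether a lower level of *Klf4* after microcurrent stimulation (MCS) was shared by its relatives. The genes were listed by symbol (*Klf2*, *Klf3*, *Klf4*, *Klf5*, *Klf6*, *Klf7*, *Klf10*, *Klf11*, *Klf13* and *Klf16*), and all 10 were among the 15298 genes of the deposited expression values.

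Bulk RNA-seq was performed on peritoneal macrophages of 6-week-old female BALB/c mice, sorted as CD11b+ F4/80+ Ly6G- cells, in 4 libraries. All mice were anaesthetised with isoflurane and fitted with electrode pads on abdomen and back. The MCS groups received a pulsed bidirectional microcurrent for 15 min, ending at zeitgeber time 2 (ZT2, in the light period), and the control groups received no current. Cells were taken at ZT2, directly after the stimulation, or 12 h later at ZT14 in the dark period. These conditions gave control at ZT2, MCS at ZT2, control at ZT14 and MCS at ZT14, with 1 library each. How many mice went into a library was not found in the methods or labels. No difference between 2 conditions could therefore be tested. Levels are CPM, reads of a gene scaled to the effective library size by the authors. Ratios are log2 ratios after adding 0.1 CPM, each with a 95% interval that covers the counting error of the reads only and not the spread between mice.

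The reads recovered from the CPM values numbered between 8365590 and 9953243 per library, so that 1 read equalled 0.102 to 0.116 CPM. The summed CPM of 6 macrophage markers lay between 24701 and 27143, and the sort markers *Itgam* and *Adgre1* were present in every library. Markers of other cells were present too. The 5 B cell markers summed to between 901 and 1279 CPM and the 5 mast cell markers to between 895 and 2098 CPM. Red blood cell markers summed to 2.54 and 1.10 CPM in the control libraries at ZT2 and ZT14, but to 23.8 and 72.4 CPM with MCS. Eosinophil markers summed to 6.58, 18.0, 1.98 and 48.0 CPM in control at ZT2, MCS at ZT2, control at ZT14 and MCS at ZT14. In bulk samples, fewer cells of a type and less RNA per cell cannot be told apart.

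*Klf4* and *Klf11* differed in opposite directions with MCS at both times, and both have the E-box letters CACGTG upstream of their start, the core recognised by CLOCK-ARNTL and by other basic helix-loop-helix factors. Promoter sequences of RefSeq (GRCm38.p6, 250 bases before to 50 after each annotated start) were available for 7 of the 10 genes. *Klf4*, *Klf6* and *Klf11* held CACGTG, which reads the same on both strands, and *Klf2*, *Klf3*, *Klf7* and *Klf13* did not. Of all 32851 promoters of this length, 7.15% held it. The bases before the earliest annotated start are shown for these 3 genes because their MCS ratios differed so widely, 5′ to 3′ on the strand of the gene, with the E-box in capitals.
Klf4, chr4:55532476-55532725, minus strand: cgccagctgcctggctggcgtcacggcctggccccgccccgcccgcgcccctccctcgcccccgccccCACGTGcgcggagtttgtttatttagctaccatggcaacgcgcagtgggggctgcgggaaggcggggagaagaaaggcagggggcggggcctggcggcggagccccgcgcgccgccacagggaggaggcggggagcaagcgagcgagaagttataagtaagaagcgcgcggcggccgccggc
Klf11, chr12:24651121-24651273, plus strand: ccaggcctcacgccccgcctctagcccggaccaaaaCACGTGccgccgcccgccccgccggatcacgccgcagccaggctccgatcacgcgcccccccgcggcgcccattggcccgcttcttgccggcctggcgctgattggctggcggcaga
Klf6, chr13:5861239-5861481, plus strand: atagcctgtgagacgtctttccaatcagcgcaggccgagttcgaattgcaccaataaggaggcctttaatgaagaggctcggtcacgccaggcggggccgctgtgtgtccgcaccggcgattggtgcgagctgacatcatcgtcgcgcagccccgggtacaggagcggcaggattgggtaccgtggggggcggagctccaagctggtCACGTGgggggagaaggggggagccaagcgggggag

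The first base of the E-box lay at -182 in *Klf4*, at -214 in *Klf11* and at -43 in *Klf6*, counted from the RefSeq start. The CACCC core of sites for the family itself, searched with its reverse complement GGGTG, occurred in the other 4 promoters and in none of these 3, against 57.5% of all promoters. GC-rich sites, which the family also binds, were not searched, so absence of these letters is not absence of sites for the family. The cAMP response element TGACGTCA, which also reads the same on both strands, occurred in 0 of the 7 promoters and in 1.79% of all promoters. These are matches of letters in a window of 300 bases, and no binding was measured.

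Levels of different genes were compared per kilobase of the longest annotated transcript, and *Klf2* had the highest level. Averaged over the 4 libraries its level was 417 CPM per kb. *Klf13* and *Klf6* followed with 79.2 and 61.0 CPM per kb. *Klf4*, *Klf3* and *Klf10* came next, with 41.8, 38.4 and 33.7 CPM per kb. The order of these 3 depended on the length used, since per kilobase of all annotated exons *Klf4* had 41.5, *Klf10* 24.5 and *Klf3* 17.8 CPM per kb. *Klf16*, *Klf11* and *Klf7* had low levels of 6.55, 5.77 and 3.52 CPM per kb, and *Klf5* had 0.124 CPM per kb.

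*Klf4* (chr4:55527143-55532466, minus strand, mm10) is the gene that prompted the comparison, so its values are given as a description. Its level was 137 CPM without and 99.5 CPM with MCS at ZT2, and 164 CPM without and 105 CPM with MCS at ZT14. Both MCS libraries were below both control libraries, and the counting intervals of the 4 levels did not overlap between the groups. The log2 ratio of MCS to control was -0.47 at ZT2 (-0.59 to -0.34) and -0.65 at ZT14 (-0.76 to -0.53). The ratio at ZT14 was lower than that at ZT2 by a log2 difference of -0.18, with a counting interval of -0.35 to -0.01. Of 12236 genes that could be compared at both times, 56 (0.458%) had ratios at or below those of *Klf4* at both, and the intervals of 1.32% lay below 0 at both.

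**Figure D1:**
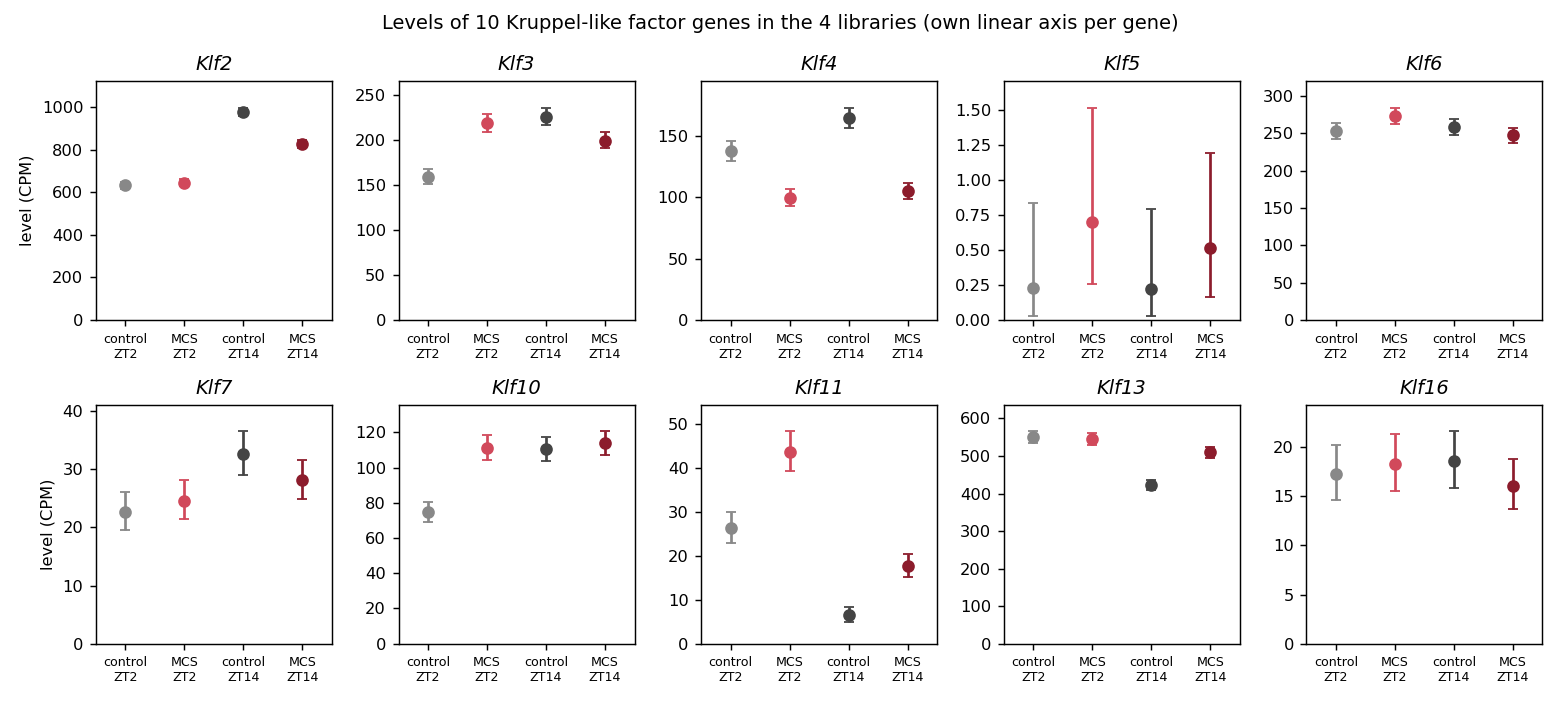
Level in CPM (vertical axes, linear from 0, own scale per gene) of each of the 10 genes in the 4 libraries (horizontal axes). Points are single libraries and bars are 95% Poisson counting intervals. *Klf4* sat lower in both MCS libraries (99.5 and 105 CPM) than in both controls (137 and 164 CPM), and no other gene showed that order.

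None of the 8 measured relatives was lower with MCS at both times, a pattern that 20.4% of the 12236 genes showed. *Klf5* was left out of this count because its mean level was under 1 CPM. At ZT2, 7 of the 8 relatives had a ratio above 0 and 1 below, and the intervals of 4 lay above 0 and of none below, where 11.5% of 12612 genes had an interval above 0 and 11% one below. The median log2 ratio of the relatives at ZT2 was 0.11, against 0.005 over all genes. At ZT14, 3 relatives were above 0 and 5 below. The intervals of 2 lay above 0 and of 2 below, where 18.7% and 18.9% of 12368 genes did so, and the median of the relatives was -0.12 against 0.004 over all genes.

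*Klf2* (chr8:72319033-72321656, plus strand) belongs to the same subgroup of activators as *Klf4* and maintains quiescence of T cells and endothelium. Its level was 631 CPM without and 645 CPM with MCS at ZT2, and 976 CPM without and 827 CPM with MCS at ZT14. Both ZT14 libraries were above both ZT2 libraries. The MCS to control ratio was 0.03 at ZT2 (-0.02 to 0.09), where the libraries did not differ beyond counting error, and -0.24 at ZT14 (-0.28 to -0.20). At ZT14 the MCS level of *Klf2* was 0.847 of its control level, and that of *Klf4* was 0.639 of its own.

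*Klf3* (chr5:64803388-64832901, plus strand) encodes a repressor that recruits C-terminal binding proteins. Its level was 159 CPM without and 218 CPM with MCS at ZT2, and 226 CPM without and 199 CPM with MCS at ZT14. The control library at ZT2 stood below the other 3. The ratio was 0.46 at ZT2 (0.36 to 0.56) and -0.18 at ZT14 (-0.27 to -0.09), so that *Klf3* was the 1 listed gene whose intervals lay above 0 at ZT2 and below 0 at ZT14, a pattern found in 4.88% of genes.

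*Klf10* and *Klf11* encode TGF-beta-inducible repressors that bind the SIN3A corepressor. *Klf11* (chr12:24651274-24662789, plus strand) had 26.3 CPM without and 43.7 CPM with MCS at ZT2, and 6.48 CPM without and 17.7 CPM with MCS at ZT14. It was higher with MCS at both times and higher at ZT2 than at ZT14 in both groups. The MCS to control ratio was 0.73 at ZT2 (0.49 to 0.98) and 1.43 at ZT14 (1.01 to 1.90). *Klf11* was the 1 measured gene of the list past a 2-fold difference at ZT14, which 3.4% of genes passed, and no measured gene of the list passed it at ZT2, where 2.21% of genes did. It was also the 1 listed gene with intervals above 0 at both times, against 1.2% of all genes, and its ratio at ZT14 exceeded that at ZT2 by 0.70 (0.22 to 1.19).

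*Klf10* (chr15:38291463-38300706, minus strand) had 74.7 CPM without and 111 CPM with MCS at ZT2, and 110 CPM without and 114 CPM with MCS at ZT14. As for *Klf3*, the control library at ZT2 was the low one, and the other 3 lay within each other's counting intervals. The ratio was 0.58 at ZT2 (0.43 to 0.72) and 0.04 at ZT14 (-0.08 to 0.17).

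*Klf13* (chr7:63886351-63938915, minus strand), a factor of lymphocyte cytokine expression, had 550 CPM without and 544 CPM with MCS at ZT2, and 422 CPM without and 510 CPM with MCS at ZT14. The control library at ZT14 was the lowest. The ratio was -0.01 at ZT2 (-0.07 to 0.04) and 0.27 at ZT14 (0.21 to 0.33), the opposite direction to *Klf4* at that time.

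*Klf6* (chr13:5861482-5870394, plus strand) varied least over the libraries. It had 253 CPM without and 273 CPM with MCS at ZT2, and 258 CPM without and 247 CPM with MCS at ZT14, with ratios of 0.11 (0.02 to 0.19) and -0.07 (-0.15 to 0.02). *Klf7* (chr1:64029447-64122282, minus strand), known from neuronal development, lay between 22.6 and 32.6 CPM and *Klf16* (chr10:80567124-80577321, minus strand), a repressor of the same subgroup as *Klf13*, between 16.1 and 18.6 CPM. Their MCS to control ratios did not exceed counting error at either time, with intervals at ZT14 of -0.46 to 0.03 for *Klf7* and -0.53 to 0.11 for *Klf16*. The *Klf4* ratio of -0.65 at that time was outside both intervals.

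*Klf5* (chr14:99298691-99315036, plus strand), best known from epithelia, was represented by 2 reads in control at ZT2, 6 in MCS at ZT2, 2 in control at ZT14 and 5 in MCS at ZT14. The interval of its MCS to control ratio ran from -0.89 to 4.93 at ZT2 and from -1.39 to 4.61 at ZT14. No difference was detectable at this depth.

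**Figure D2:**
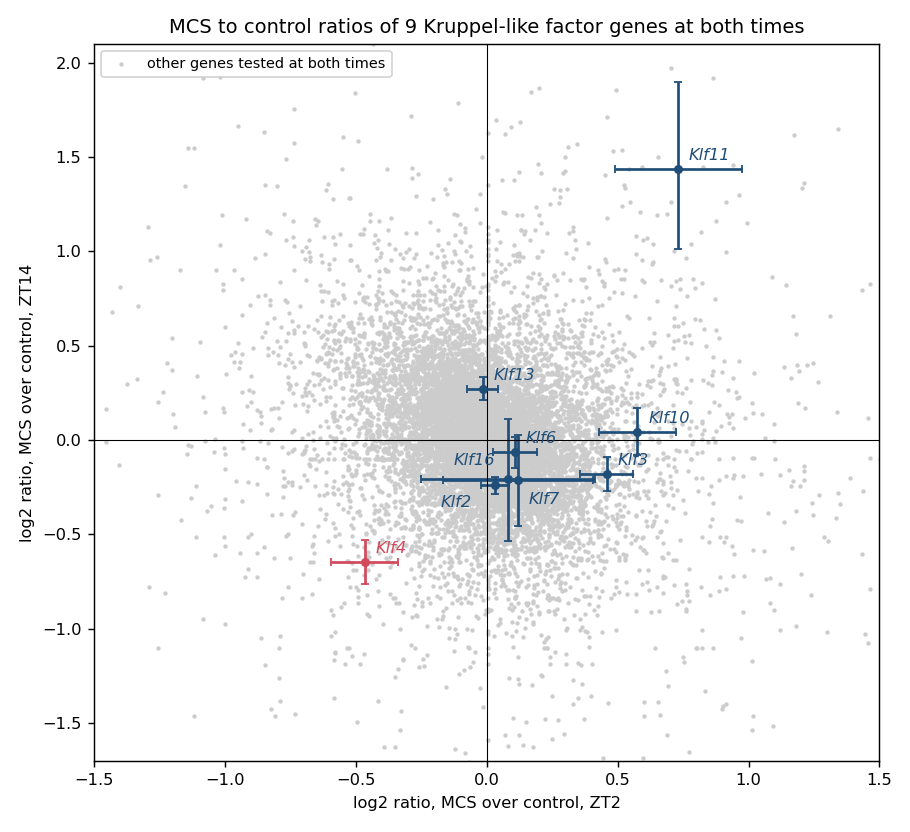
Log2 ratio of MCS to control at ZT2 (horizontal axis) and at ZT14 (vertical axis) for 9 of the listed genes, with 95% counting intervals, over the other genes compared at both times in grey (12236 in all, of which 84 fall outside the axes). *Klf4* (red) lies at -0.47 and -0.65, *Klf11* at 0.73 and 1.43, and the other 7 closer to 0 at ZT14.

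A fit over all 4 libraries was possible under the assumption that MCS has the same effect at both times, which leaves 1 residual degree of freedom. The SE and p values of limma rest mostly on a variance pooled over genes (median prior degrees of freedom 33.7). The residual is the difference between the MCS ratios at both times, and no replicate libraries measured the spread between mice. Under that assumption limma called 19 of 12511 genes (0.152%) for MCS at an adjusted p under 0.05, and *Klf11* was 1 of them, with a log2 difference of 1.08 (SE 0.21, adjusted p = 0.0115). It was higher in 2 of 2 pairs of libraries, but its ratios at ZT2 and ZT14 differed beyond counting error (0.70, given above). With 1 library per condition, whether *Klf11* breaks the assumption of the fit could not be tested. The call was lost when genes without a minimum level were added to the fit (adjusted p = 0.194) and held in the other 4 settings tried, with adjusted p between 0.0127 and 0.0263. *Klf4*, the gene that prompted the comparison, was not called (log2 difference -0.56, SE 0.17, limma adjusted p = 0.546). None of the 7 measured relatives other than *Klf11* was called. Their log2 differences lay between -0.10 and 0.31, with SE between 0.17 and 0.21 and limma adjusted p values that rounded to 1, and the highest was that of *Klf10* at 0.31 (SE 0.17).

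Time of day was compared within control and within MCS, 2 comparisons that share no library. In both groups, cells at ZT2 came directly after anaesthesia and pad fitting, and cells at ZT14 came 12 h after. Time of day and time since this procedure can therefore not be told apart. In control, the ZT2 to ZT14 ratio of *Klf11* was 2.01 (1.60 to 2.46), the 1 listed gene past 2-fold, which 3.61% of genes passed. With MCS it was 1.30 (1.04 to 1.57), again the 1 listed gene past 2-fold, against 5.83% of genes. In the fit over all 4 libraries *Klf11* was called for time by limma, with a log2 difference of 1.65 (SE 0.21, adjusted p = 4.29e-06), as were 2.32% of genes, and no other listed gene was. The time term assumes the same time difference with and without MCS, and the intervals of *Klf11* in control and MCS did not overlap. As for the MCS term, its p value does not rest on replicate libraries.

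Most of the listed genes were lower at ZT2 than at ZT14 in the controls. Of the 9 measured genes, 7 were lower and 2 higher, where 50.5% of all genes were lower. The intervals of 5 lay below 0, where those of 15.9% of all genes did. *Klf2* had a ratio of -0.63 (-0.68 to -0.58), *Klf10* of -0.56 (-0.71 to -0.42), *Klf7* of -0.53 (-0.80 to -0.26) and *Klf3* of -0.51 (-0.61 to -0.41). *Klf4* had a ratio of -0.26 (-0.37 to -0.15). *Klf13* went the other way, with 0.38 (0.32 to 0.44).

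With MCS these ratios were mostly nearer to 0. The same 4 libraries gave the MCS ratios, and a gene's change in time ratio from control to MCS equals the difference between its MCS ratios at ZT2 and ZT14. The time ratios are therefore no separate evidence on MCS. For *Klf3* and *Klf10* the low control library at ZT2 enters both. The intervals of *Klf4* (-0.21 to 0.05), *Klf10* (-0.16 to 0.10) and *Klf7* (-0.46 to 0.07) included 0. *Klf2* remained lower at ZT2 (-0.36, -0.41 to -0.31), *Klf13* was at 0.09 (0.04 to 0.15), and *Klf3* was higher at ZT2 (0.13, 0.04 to 0.23). The ratio was nearer to 0 with MCS than in control in 7 of the 9 genes, all but *Klf6* and *Klf16*, and in 40.1% of 12295 genes overall.

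**Figure D3:**
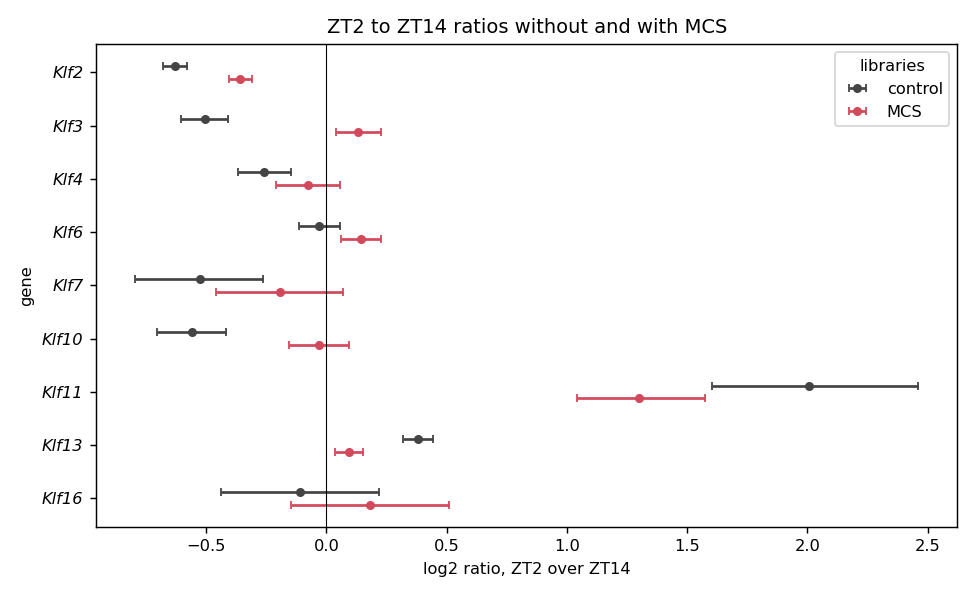
Log2 ratio of ZT2 to ZT14 (horizontal axis) for 9 listed genes (vertical axis) in the control libraries (dark) and the MCS libraries (red), with 95% counting intervals. *Klf11* had the highest ratio in both (2.01 and 1.30), and *Klf3* passed from -0.51 to 0.13.

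Of 16 other genes of the Klf and Sp family, 10 had a row, and 8 of these were measured at both times. At ZT14, 7 of the 8 were lower with MCS, 6 of them with intervals below 0 (18.9% of all genes), and their median ratio was -0.36. At ZT2, 5 were lower and 1 interval lay below 0, with a median of -0.09. *Sp1*, *Sp3* and *Klf9*, the most abundant, had ratios at ZT14 of -0.28 (-0.37 to -0.19), -0.19 (-0.30 to -0.09) and 0.15 (0.02 to 0.29). *Sp2*, picked out after its values were seen, was the 1 of the 8 with intervals below 0 at both times, with 31.3 and 22.7 CPM in control and MCS at ZT2 and 29.8 and 21.9 CPM at ZT14. Its ratios were -0.46 (-0.73 to -0.19) and -0.44 (-0.71 to -0.18). *Sp4*, *Klf8* and *Klf15*, named here after their values were seen, were also below control at both times, so that 4 of the 8 had the direction of *Klf4*, against 20.4% of all genes. The intervals of *Sp4* (-0.26 to 0.13) and *Klf8* (-0.98 to 0.20) at ZT2 and both of those of *Klf15* included 0. At ZT14 the ratio of *Sp4* was -0.44 (-0.64 to -0.23). That of *Klf8* was -0.64 (-1.18 to -0.13), at levels of 8.68 CPM in control and 5.52 CPM in MCS.

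The ERK5 kinase cascade and the MEF2 factors induce *Klf2* and *Klf4* in several cell types. At ZT14, 6 of 7 measured genes of this list were lower with MCS, 5 with intervals below 0, where 49.6% of all genes were lower and 18.9% had such an interval, and the median ratio was -0.29. At ZT2 the median was 0.09, with 3 lower and 4 higher. *Mef2a*, the most abundant, was lower at both times, with -0.12 (-0.21 to -0.04) at ZT2 and -0.29 (-0.38 to -0.21) at ZT14. *Mef2c* had -0.13 (-0.26 to 0.01) and -0.40 (-0.53 to -0.27), and the kinase gene *Map3k2* had -0.10 (-0.23 to 0.02) and -0.20 (-0.32 to -0.07).

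Many Kruppel-like factor genes respond within an hour to stimulation, like the immediate early genes. Of 19 such genes, 13 were higher with MCS at ZT2 and 14 lower at ZT14, with medians of 0.20 and -0.22, where 49.4% of all genes were lower at ZT2 and 49.6% at ZT14. At ZT14, 4 of the 19 were past 2-fold, against 3.4% of all genes. At ZT14 *Egr1* was at 32.4 CPM without and 13.4 CPM with MCS, a ratio of -1.27 (-1.58 to -0.97). *Egr2*, *Egr3* and *Nr4a2* were the others, with -1.14, -2.18 and -1.24, all lower. *Fosb* was the 1 past 2-fold at ZT2, with 1.16 (0.35 to 2.12) at levels of 1.96 and 4.52 CPM. *Junb*, *Btg2* and *Jund*, the most abundant, had ratios at ZT14 of -0.13, 0.31 and -0.29.

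Of 14 genes of the TGF-beta pathway, which induces *Klf10* and *Klf11*, 6 were higher and 8 lower at ZT2, and 3 were higher and 10 lower at ZT14. Of all genes, 49.4% were lower at ZT2 and 49.6% at ZT14. The ligand *Tgfb2*, the receptor *Tgfbr2* and the corepressor *Ski* were the most abundant, with ratios at ZT14 of -0.28, -0.03 and -0.35. *Tgfb3* was past 2-fold at ZT2, with 1.02, but its levels were 0.693 and 1.51 CPM and its interval (-0.37 to 2.80) included 0. Of 16 cofactor genes none was past 2-fold. *Ep300* and *Crebbp*, coactivators of the family, had ratios of 0.32 and 0.37 at ZT2 and of -0.30 and -0.38 at ZT14, and *Ctbp1*, the corepressor bound by Klf3, had -0.16 and 0.11.

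Genes described as targets of Klf2 or Klf4 showed no single direction. At ZT2, 6 of 12 measured genes were higher and 6 lower, and at ZT14, 7 of 11 were higher and 4 lower. *Rab3d*, of a secretory small GTPase, had 3.70, 3.60, 4.50 and 4.91 CPM in control at ZT2, MCS at ZT2, control at ZT14 and MCS at ZT14, and did not differ beyond counting error with MCS. *Retnla*, *S1pr1* and *Cd14*, the most abundant, had ratios at ZT14 of -0.43, -0.22 and 0.32. *Pparg* was past 2-fold at ZT2 with -1.20, but its interval (-2.97 to 0.13) included 0. *Thbd*, of the anticoagulant receptor thrombomodulin, was picked out after its values were seen. It had 152 and 120 CPM in control and MCS at ZT2, and 108 and 180 CPM at ZT14, with ratios of -0.34 (-0.45 to -0.22) and 0.73 (0.62 to 0.84).

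The clock activators *Arntl* and *Clock*, which are among the factors known to bind E-boxes, were compared as well. *Arntl* had 32.3, 33.6, 14.7 and 19.0 CPM in control at ZT2, MCS at ZT2, control at ZT14 and MCS at ZT14. It was lower at ZT14 than at ZT2 in both groups. A link between its level and those of the genes with E-box letters was not tested. The MCS to control ratio was 0.06 (-0.19 to 0.30) at ZT2 and 0.37 (0.04 to 0.70) at ZT14. *Clock* lay between 88.6 and 98.3 CPM and its ratios did not exceed counting error.

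Likeness to *Klf4* was measured as the Euclidean distance between profiles of log2(CPM + 0.1) over the 4 libraries, each centred on its mean, among 8630 genes with a mean of at least 10 CPM. The 5 nearest genes were *Dusp16*, *Rnf8-cmtr1*, *Snn*, *Ralgps2* and *Cd22*, at distances between 0.093 and 0.160. *Cd22*, the gene of an inhibitory receptor of B cells, had 180 and 142 CPM in control and MCS at ZT2 and 201 and 139 CPM at ZT14. The nearest listed relative was *Klf16*, at rank 1872, and *Klf11* was at rank 8613. With a minimum of 30 CPM, 3 of the 5 genes were found again, and with each profile scaled to the same length, 0 were.

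Markers of B cells moved in the same direction as *Klf4* at ZT14 but not at ZT2. All 5 were lower with MCS at ZT14, with ratios between -0.71 and -0.36 and intervals below 0. At ZT2 their ratios lay between -0.16 and 0.07, and 1 of the 5 intervals was below 0, that of *Ms4a1*. *Klf4* was at -0.47 at ZT2. Mast cell markers were higher at ZT2 in 5 of 5 and lower at ZT14 in 5 of 5, with medians of 0.29 and -0.37. Macrophage markers were lower in 5 of 6 at ZT2 and higher in 5 of 6 at ZT14, with medians of -0.05 and 0.15, and markers of large peritoneal macrophages in 5 of 6 each as well, with -0.17 and 0.24. Markers of small peritoneal macrophages were higher in 4 of 5 at ZT2, all 4 with intervals above 0, and lower in 4 of 5 at ZT14, with medians of 0.19 and -0.05. *Klf2*, *Klf3*, *Klf6*, *Klf7* and *Klf16* were above control at ZT2 and below it at ZT14. Among them only *Klf3* had intervals that excluded 0 at both times. Opposite signs at the 2 times, in either order, were found in 58.7% of 12236 genes, so this order of signs shows nothing particular to the Klf genes. Neutrophil markers summed to 15.1, 68.4, 15.2 and 4.81 CPM in control at ZT2, MCS at ZT2, control at ZT14 and MCS at ZT14. The red blood cell and eosinophil sums given above were higher with MCS at both times, as *Klf11* was. The part of these cell types in the differences of the Klf genes was not tested.

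**Figure D4:**
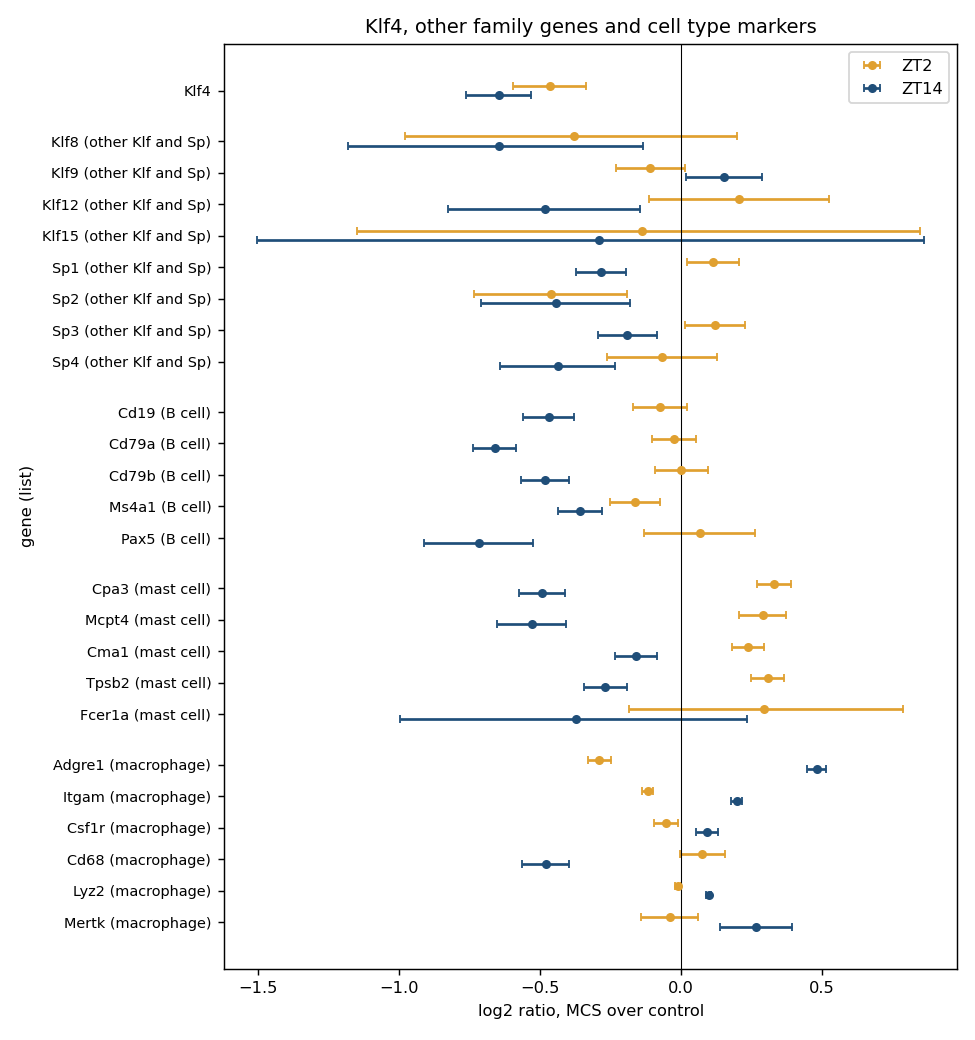
Log2 ratio of MCS to control (horizontal axis) at ZT2 (yellow) and ZT14 (blue) for *Klf4*, the 8 measured other family genes and markers of B cells, mast cells and macrophages (vertical axis), with 95% counting intervals. At ZT14 all 5 B cell markers lay below 0, as *Klf4* did, and at ZT2 they lay between -0.16 and 0.07.

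*Klf13* overlaps the gene *E030018B13Rik* on the opposite strand, which has a row of its own, and *Klf3* and *Klf7* overlap annotated non-coding transcripts. The libraries were strand-specific, but whether strand was used in counting was not stated in the methods or labels. No listed gene had values equal to those of another gene.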

How the data were processed

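Sorted peritoneal macrophages were compared in 4 libraries, 1 per condition. The authors trimmed reads with Trimmomatic 0.38, counted them with RSEM 1.3.0 and Bowtie 2 on mm10, and deposited CPM normalised with edgeR, per the labels and the study's methods. Reads were recovered by dividing each CPM column by the value of 1 read. All values were whole within 0.05 read (100%), for 8365590 to 9953243 reads per library, and the deposited scaling equalled TMM. Rounding of RSEM estimates by the authors cannot be told apart.

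Log2 ratios used a pseudocount of 0.1 CPM. Genes with a log2 mean above 0 in the libraries compared were measured, and past 2-fold meant an absolute log2 ratio above 1. Intervals (95%) were exact conditional binomial (Clopper-Pearson) for ratios, exact Poisson for levels and normal for differences of ratios, and cover counting error only. The additive fit (time and MCS) used limma 3.58.1 with a trend and Benjamini-Hochberg adjustment. edgeR 4.0.16 on the recovered reads was an alternative. For the MCS term, data were simulated with the same effect at both times and 1 spread between libraries (dispersion 0.02) for all genes. On these data limma recovered 73 of 100 genes changed 2-fold and 100 of 100 changed 4-fold. It called 12 unchanged genes, among 12435 genes. The spread between mice is not known from these libraries, so these numbers need not hold for the real fit. With 4-fold changes in 200 genes and counting error only, 199 or 200 passed 2-fold in each comparison, as did 70 to 83 unchanged genes of 15298. That simulation held no spread between mice, so the 70 to 83 genes are not a false-positive rate for the real libraries.

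Genes were named by rule: the 10 listed genes, the 3 most abundant and any past 2-fold in an MCS comparison of each list, *Rab3d*, *Arntl*, *Clock* and the 5 profiles nearest to *Klf4*. Another gene of the rule is not reported here, and genes named outside it are marked as such. The genes and lists were chosen with earlier results of these data known. Gene positions and lengths came from GENCODE (GRCm38) and promoters from RefSeq. Scripts ran in R 4.3.3 and in Python 3.11.15 (scipy 1.17.1, pandas 2.3.3, numpy 2.4.6, matplotlib 3.10.9).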

Additional observations from a re-analysis of the deposited data

Results flagged for a closer look

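In 6 of the 9 measured listed genes, the MCS to control ratio had opposite signs at ZT2 and ZT14, as it had in 58.7% of 12236 genes, and with 1 library per condition the difference between the times was not tested. The log2 ratio at ZT14 minus that at ZT2 was -0.64 (counting interval -0.77 to -0.50) for *Klf3*, -0.27 (-0.34 to -0.20) for *Klf2*, -0.17 (-0.29 to -0.06) for *Klf6* and 0.29 (0.20 to 0.37) for *Klf13*. For *Klf7* it was -0.33 (-0.70 to 0.03) and for *Klf16* -0.29 (-0.74 to 0.16), and both of these intervals included 0. The ratio of *Klf13* at ZT2 was -0.01 and became 0.03 when CPM was taken over all reads of a library, which leaves 5 genes with opposite signs. Of the 6, *Klf3* was the one whose ratio differed from 0 beyond counting error at both times.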

How the results depend on the processing

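Of 200 recomputed ratios of the 10 genes (40 ratios under 5 settings), 0 changed direction among those beyond counting error, and 2 moved outside their counting interval, both when CPM was taken over all reads of a library, a setting added after the data were seen. The numbers of genes past 2-fold moved more. MCS against control at ZT14 gave 421 genes, but 174 with a pseudocount of 1 CPM, 1615 with no minimum level, 81 with a log2 mean above 3 and 1493 past 1.5-fold. At ZT2 the corresponding numbers were 279, and 101, 1434, 26 and 981. ZT2 against ZT14 gave 450 genes in control, and 229, 1567, 139 and 1469 in the same order, and 731 with MCS, and 409, 2053, 197 and 2239. For MCS the fit called 19 genes with limma and 24 with edgeR, 5 with no minimum level and 10 with a log2 mean above 3. For time it called 290 with limma and 154 with no minimum level. The difference between the ratios at both times exceeded counting error in 7 listed genes with a pseudocount of 0.1 CPM and of 1 CPM. The share over all genes was not computed, so this number shows nothing particular to the listed genes. The cause of these moves was not tested. TMM factors returned the deposited scaling and moved nothing. No paired analysis was possible because each condition has 1 library and so no replicate numbers to match. MCS and control were compared within each time by ratios, and over both times by the additive fit. No replicate was left out, with 1 library per condition. Intervals cover counting error, not the spread between mice, and for *Klf5*, with 2 to 6 reads per library, depth limits any comparison.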
